A study of Mus musculus with 36 samples.

Results

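The 9 genes described here encode enzymes of serine synthesis and of the folate-linked one-carbon cycle, and were read in the B3 mouse pre-B cell line over 24 h with and without induced Ikaros. They were chosen by symbol (Phgdh, Psat1, Psph, Shmt1, Shmt2, Mthfd1, Mthfd2, Mthfd1l and Mtr), and all 9 were found among the 12762 genes of the expression table, where no low-value filter was applied here. RNA sequencing was performed on 36 libraries in 12 groups of 3. Control cells carried an MSCV retroviral vector with the ERt2 receptor domain but no Ikaros, Ikaros cells carried one in which HA-tagged Ikaros was joined to ERt2, and each line was sampled at 0, 2, 6, 12, 18 and 24 h. The labels list 4-hydroxytamoxifen (4-OHT), the drug that moves ERt2 fusions into the nucleus, at 0.5 uM for both lines. Their treatment text, however, ties the drug to the Ikaros cells. They list it at 0 h too, whereas the methods describe the 0 h cultures as free of drug and collected on separate occasions. A contrast with 0 h therefore also spans drug and occasion, which cannot be told apart from time within 1 line. All libraries came from 1 cell line with the transgene under a viral promoter, and the replicates were 3 culture batches (1, 2 and 4 at 0 h, then 1, 3 and 4). Because the samples were bulk RNA, fewer cells of one kind and less of an RNA in each cell cannot be told apart.

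Cells make serine from the glycolytic intermediate 3-phosphoglycerate in sequential steps run by Phgdh, Psat1 and Psph. Serine hydroxymethyltransferases (Shmt1 in the cytosol, Shmt2 in mitochondria) then pass a carbon from serine to tetrahydrofolate and release glycine. The Mthfd enzymes interconvert the resulting folates, which supply purine and thymidylate synthesis, and methionine synthase (Mtr) uses a methyl folate to turn homocysteine into methionine. Proliferating lymphocyte precursors are known for high use of this network.

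The values were log expression, taken as base 2 on which every fold here rests, after normalisation for GC content, length and library preparation, with library medians of about 11.7. The depth reached in each library is unknown, since no counts were analysed here and the methods give only an intended depth. The Ikzf1 value, which covers endogenous and introduced transcript, lay between 13.95 and 14.85 in the control libraries and between 19.6 and 20.9 in the Ikaros libraries, with no overlap. Of the marker lists, 12 of 12 pre-B genes had values, although not all were high: Dntt (6.96 to 9.74), for example, lay below every library median. Values were analysed for 0 of 6 T cell and 0 of 5 stromal markers, for 2 of 6 myeloid markers (Itgam and Lyz2, not Csf1r, Cd14, Mpo or Elane) and for 2 of 5 erythroid markers (Hbb-b1 and Epor).

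On GRCm38 all 9 were protein-coding genes. Phgdh (ENSMUSG00000053398) lay at chr3:98313170-98339990, Psat1 (ENSMUSG00000024640) at chr19:15904678-15947337 and Psph (ENSMUSG00000029446) at chr5:129765558-129787449, each on the reverse strand. Shmt1 (ENSMUSG00000020534) lay at chr11:60788104-60811718 and Shmt2 (ENSMUSG00000025403) at chr10:127517123-127522444, also on the reverse strand. Mthfd1 (ENSMUSG00000021048) lay at chr12:76255298-76319803 and Mthfd1l (ENSMUSG00000040675) at chr10:3973118-4167081 on the forward strand. Mthfd2 (ENSMUSG00000005667) lay at chr6:83305691-83325908 and Mtr (ENSMUSG00000021311) at chr13:12182712-12258113 on the reverse strand. Psph shared 452 exonic bases with Cct6a and Shmt1 shared 184 with Smcr8, both on the opposite strand. Whether the counting used strand was not given in the sources used here, so reads in those bases cannot be told apart.

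Because 8 of the 9 genes moved in 1 direction, their promoters were searched on both strands, in the 250 bases before each RefSeq start, for a core of the Ikaros binding site (TGGGAA), the E-box of the Myc family (CACGTG) and an ATF4-type element (TGATGNAA). The E-box was found in 0 of the 10 promoters listed for the 9 genes (6.02% of 32851 promoters held it) and the ATF4-type element in 0 of 10 (3.45%). TGGGAA was found in 2 of 10 promoters, those of Shmt1 and Shmt2, against 21.6% of all promoters. The 3 matches are shown because these are the cytosolic and mitochondrial forms of the same enzyme, whose time courses differ below. Each is read on the reverse strand of GRCm38.p6, with the 6 matching bases in capitals, and the second and the third match on the other strand to the gene.
Shmt2, chr10:127522510-127522539: gacttgtatagaTGGGAAagagcaaagtaa
Shmt2, chr10:127522482-127522511: aaaaaactacaaTTCCCAgaaggcaatttt
Shmt1, chr11:60811422-60811451: gtcccctcctccTTCCCAccccctccagtt
The Shmt2 matches began 83 and 55 bases before the start and lay outside the annotated gene, and the Shmt1 match began 174 bases before the start, in an intron of a longer annotated transcript. A match describes these letters only.

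At 24 h, 8 of the 9 genes were lower in Ikaros cells than in control cells, from 1.88-fold (Psat1) to 7.17-fold (Shmt1), and 0 were higher. By limma with Benjamini-Hochberg adjustment over all genes, 31.9% of genes were called lower and 31.0% higher at that time. The median log2 difference was -1.91 over the 9 genes, -0.73 over the 39 other genes of the pathway and -0.01 over all genes. Mtr was the exception (adjusted p = 0.0625, limma), and it too was called lower, making 9 of 9, with culture batches as a replicate block (0.00553) or each pair as a block (0.0136). The shares above are from the fit without a block. In all 9 genes the 3 Ikaros libraries lay below the 3 control libraries, an order that held for 36.1% of all genes.

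**Figure D1:**
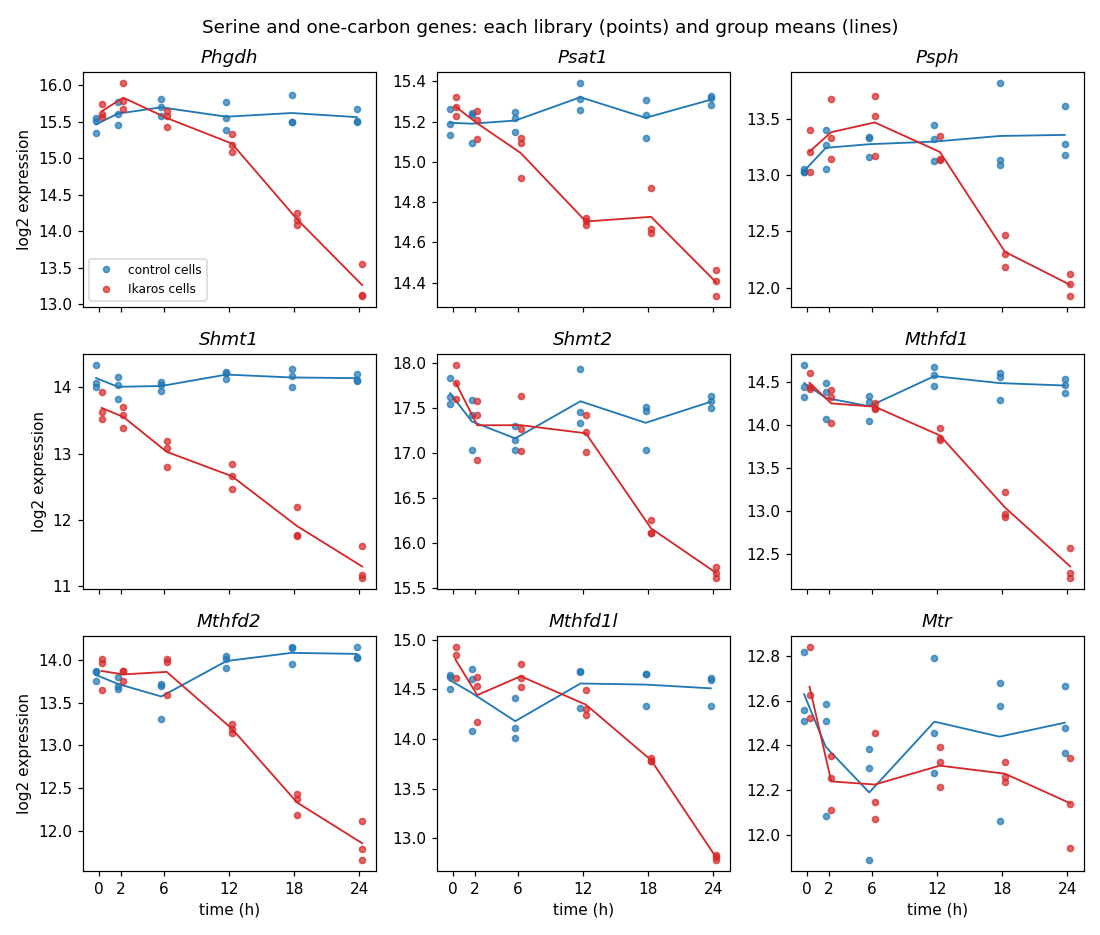
Log2 expression (vertical axes, 1 scale per gene) against time in hours for the 9 genes. Points are libraries, 3 per line and time, lines join group means, control cells are blue and Ikaros cells are red. At 24 h all red points lie below all blue points in each gene, and the Mtr groups are the closest, with 12.34 as the highest Ikaros value and 12.36 as the lowest control value.

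Of the serine synthesis enzymes, Phgdh, which oxidises 3-phosphoglycerate and commits it to serine, showed the greatest difference. Its control libraries at 24 h read 15.50, 15.51 and 15.68 (log2 expression), and its Ikaros libraries 13.12, 13.54 and 13.11. The groups were far apart. The difference was -2.30 ± 0.13 (log2, SE), a 4.94-fold lower level (adjusted p = 1.85e-14, limma). At 0 h the Phgdh control libraries read 15.34, 15.55 and 15.51 and the Ikaros libraries 15.61, 15.57 and 15.75, so the Ikaros cells lay just above the control cells, with a difference of 0.18 that was not called (adjusted p = 0.509, limma). It was called lower from 12 h (-0.37, adjusted p = 0.0203, limma) and reached -1.46 at 18 h. The 12 h call was lost without culture batch 1 (-0.45, adjusted p = 0.0655, limma), without batch 3 (-0.32, 0.17) and when only the 6 libraries of that time were fitted (-0.37, 0.0996). Each of these fits had fewer libraries to set the spread.

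Psat1, the aminotransferase of the second step, was lower by less. Its 24 h control libraries read 15.32, 15.33 and 15.28, and its Ikaros libraries 14.41, 14.46 and 14.33, a difference of -0.91 ± 0.07 (log2, SE; 1.88-fold lower). The course was stepped: -0.62 ± 0.07 at 12 h, -0.49 ± 0.07 at 18 h, then -0.91. Psph, the phosphatase that releases serine, differed late. It lay at -0.09 ± 0.17 at 12 h, which was not called (adjusted p = 0.686, limma), then at -1.03 ± 0.17 at 18 h and -1.33 ± 0.17 at 24 h (2.52-fold lower). At 24 h its control libraries read 13.28, 13.18 and 13.61 and its Ikaros libraries 11.92, 12.12 and 12.03. Of the 24 h log2 difference, 68.0% was present at 12 h for Psat1, 16.0% for Phgdh and 6.9% for Psph.

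Shmt1, the cytosolic serine hydroxymethyltransferase, had the largest 24 h difference of the 9 and was the earliest called lower. The control libraries read 14.10, 14.20 and 14.12 at 24 h and the Ikaros libraries 11.17, 11.60 and 11.12. The difference was -2.84 ± 0.14 (log2, SE; 7.17-fold lower; adjusted p = 3.12e-15, limma). Shmt1 was lower in Ikaros cells from the start: at 0 h the control libraries read 14.01, 14.07 and 14.34 and the Ikaros libraries 13.62, 13.52 and 13.93. These groups did not overlap. The 0 h difference of -0.45 ± 0.14 just missed the threshold (adjusted p = 0.0522, limma) and passed it with culture batches as a replicate block (0.00189) and with each pair as a block (0.00468). The 2 h difference was again -0.45 and was called (adjusted p = 0.0276, limma), but not without batch 1 (0.258), without batch 3 (0.149) or with the libraries of that time alone (0.148). In each of these fits, which had fewer libraries, the 2 h difference stayed at -0.45. The difference then widened through -0.99 at 6 h, -1.53 at 12 h and -2.24 at 18 h. Measured against its own 0 h difference, Shmt1 stood at -2.39 at 24 h, beside -2.48 for Phgdh and -2.26 for Mthfd2.

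Shmt2, the mitochondrial form, separated later. At 24 h its control libraries read 17.58, 17.64 and 17.50 and its Ikaros libraries 15.61, 15.73 and 15.66, a difference of -1.91 ± 0.18 (log2, SE; 3.75-fold lower). At 0 h its difference was 0.12, with overlapping groups. At 12 h it was -0.36 ± 0.18 and not called (adjusted p = 0.111, limma), whereas it was called with culture batches as a replicate block (0.0414) or each pair as a block (0.0433). The 12 h pairs were unequal, with -0.93 in batch 1 against -0.04 and -0.11 in the other two. The 18 h difference was -1.18 ± 0.18.

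Mthfd1 carries the cytosolic dehydrogenase, cyclohydrolase and synthetase activities that link the folate forms. At 24 h its control libraries read 14.47, 14.55 and 14.38 and its Ikaros libraries 12.28, 12.57 and 12.22. The difference was -2.11 ± 0.13 (log2, SE; 4.32-fold lower). At 0, 2 and 6 h it lay between -0.06 and 0.003 and was not called. It was -0.69 ± 0.13 at 12 h and -1.45 ± 0.13 at 18 h, both called.

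Mthfd2, the mitochondrial dehydrogenase and cyclohydrolase, read 14.15, 14.03 and 14.03 in control cells and 11.80, 12.12 and 11.66 in Ikaros cells at 24 h, a difference of -2.21 ± 0.12 (log2, SE; 4.63-fold lower). Its sign changed over time. At 6 h Ikaros cells were higher by 0.29 ± 0.12 with 0.29 in each of the 3 culture batches, which was not called (adjusted p = 0.0686, limma) but was with culture batches as a replicate block (0.0351) or each pair as a block (0.0157). Mthfd2 was then lower by -0.79 ± 0.12 at 12 h. Mthfd1l, the mitochondrial formyltetrahydrofolate synthetase, took a like course: it was the only member called higher at any time, by 0.45 ± 0.15 at 6 h (adjusted p = 0.0168, limma), and it was 3.26-fold lower at 24 h. At 6 h its Ikaros libraries read 14.75, 14.62 and 14.53 and its control libraries 14.01, 14.41 and 14.11. The 6 h call was lost without batch 1 (0.31, adjusted p = 0.289, limma), without batch 3 (0.58, adjusted p = 0.0768) and with the libraries of that time alone (0.45, adjusted p = 0.103). At 24 h its Ikaros libraries lay close together, at 12.83, 12.81 and 12.78, against 14.61, 14.59 and 14.33 in control cells. From 0 h to 6 h Mthfd1l changed by -0.17 in Ikaros cells and -0.41 in control cells, and Mthfd2 by -0.01 and -0.25. None of these was called. The Mthfd1l difference was 0.21 at 0 h, and its change to 6 h was not called (0.25, adjusted p = 0.474, limma). Nor was that of Mthfd2 (0.24, adjusted p = 0.391, limma).

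Mtr was the member that differed least. Its 24 h control libraries read 12.66, 12.48 and 12.36 and its Ikaros libraries 12.34, 11.94 and 12.14. The groups nearly met without overlapping. The difference was -0.36 ± 0.17 (log2, SE; 95% confidence interval -0.70 to -0.02) and was not called (adjusted p = 0.0625, limma), whereas it was called with culture batches as a replicate block (0.00553), with each pair as a block (0.0136) and without batch 4 (0.0155). In control cells batch 4 gave the lowest Mtr value at 5 of the 5 times after 0 h and the highest Phgdh value at 5 of 5, and in Ikaros cells it gave the lowest Mtr value at 4 of 5. Within batches the 24 h difference in Mtr was -0.32, -0.53 and -0.22.

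**Figure D2:**
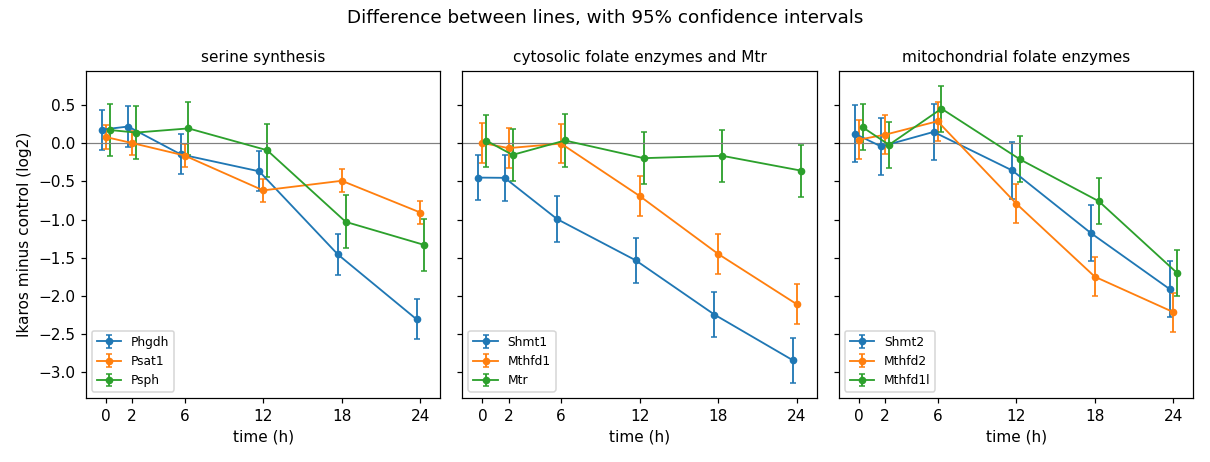
Ikaros minus control log2 difference (vertical axis) against time in hours, in panels for serine synthesis, for cytosolic folate enzymes with Mtr, and for mitochondrial folate enzymes. Points are limma estimates and bars 95% confidence intervals. Shmt1 is below 0 from 0 h onward, Mthfd1l lies at 0.45 at 6 h and -1.70 at 24 h, and Mtr stays between -0.36 and 0.04.

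Counted over time, members were called lower in 0 of 9 cases at 0 h (3.72% of all genes were lower and 4.61% higher), in 1 at 2 h (9.88% and 9.18%), in 1 at 6 h (19.2% and 18.1%), in 5 at 12 h (22.8% and 23.0%) and in 8 at 18 h (29.2% and 29.0%). The single gene at 2 and 6 h was Shmt1 and the single gene higher, at 6 h, was Mthfd1l. The 5 genes at 12 h were Phgdh, Psat1, Shmt1, Mthfd1 and Mthfd2, and Psph, Shmt2 and Mthfd1l joined them at 18 h. At 2 h and 6 h 1 of 9 genes stood near or below the share of all genes, and from 12 h the members' share was above it. The share of all genes was not matched for level: member means exceeded those of 61.7% (Mtr) to 98.8% (Shmt2) of genes. The members were also chosen with earlier results of these data known. With culture batches as a replicate block the counts were 1 lower at 0 h (Shmt1), 2 higher at 6 h (Mthfd1l and Mthfd2), 6 lower at 12 h (with Shmt2) and 9 lower at 24 h (with Mtr). The shares of all genes above are from the fit without a block, and those under the block are not given here.

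Since the lines could differ from the start, the change of the Ikaros-control difference from 0 h was tested next. No member was called at 2 h or 6 h, where 3.1% and 15.9% of genes changed in either direction, by limma. The 6 h change of Shmt1 was -0.54 ± 0.20 (log2, SE; adjusted p = 0.0709, limma), and 1 member was called lower at 6 h with culture batches as a replicate block. At 12 h 5 members were called lower (14.3% of genes), at 18 h 8 (21.0%) and at 24 h 8 (24.2%). The 12 h count was 3 without replicate 1 and 2 without replicate 2. The 24 h change ranged from -0.99 ± 0.11 (Psat1) to -2.48 ± 0.18 (Phgdh). It was -0.39 ± 0.24 for Mtr, which was not called (adjusted p = 0.175, limma) and was called with culture batches as a replicate block (0.034). Taken from 2 h instead, which leaves out the 0 h cultures, the same 8 members were called lower (24.0% of genes), with changes from -0.91 (Psat1) to -2.52 (Phgdh).

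The differences came with movement of the Ikaros line. Against its own 0 h, 0 members were called lower at 2 h (9.61% of genes), 4 after 6 h (15.6%) and 7 after 12 h (22.2%). By 18 h the number was 8 (26.5%), and by 24 h it was 9 (29.6%). The 4 genes at 6 h were Psat1, Shmt1, Shmt2 and Mtr, and the count there was 2 with culture batches as a replicate block, and 1 without any 1 of the 3 replicates or with only the groups compared. In the block fit, contrasts with 0 h compared fitted levels of batch 1, the reference, and another reference could give other values. The 12 h count was 4 without replicate 1. For Shmt2 and Mtr the 6 h values of the control line against its own 0 h were as large (-0.50 and -0.44, against -0.48 and -0.44 in Ikaros cells) but not called. The 24 h change in the Ikaros line (log2) was -2.39 for Shmt1, -2.38 for Phgdh, -2.14 for Mthfd1 and -2.13 for Shmt2. It was -2.01 for Mthfd2, -1.99 for Mthfd1l, -1.18 for Psph and -0.87 for Psat1. For Mtr it was -0.52 (adjusted p = 0.00877, limma), a call lost without the second replicate (0.122). It was also lost at the level of batch 1 in the block fit (-0.31, adjusted p = 0.0596, limma).

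In control cells 0 of 9 members were called against 0 h in either direction at any time, by limma. The share of all genes that changed was 0.047% at 2 h and 5.1% at 6 h, then 0.0549% (12 h), 0.478% (18 h) and 0.47% (24 h). At 24 h the control changes lay between -0.13 (Mtr) and 0.32 (Psph). The 6 h control values included the lowest adjusted p of any control contrast, for Mthfd1l (-0.41, adjusted p = 0.0817, limma), and 6 h was the time at which the control line as a whole moved the most.

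The cytosolic and mitochondrial enzymes were then compared within each library, as the mitochondrial gene minus its cytosolic counterpart, and the difference of that value between lines was averaged over 12, 18 and 24 h. The Ikaros-control difference was less negative for Shmt2 than for Shmt1 by 1.06 (log2), above 0 in 9 of 9 culture pairs. The exact two-sided permutation test within times gave p = 0.00025, the smallest it can give (0.000375 adjusted over the 3 pairs). For Mthfd1l against Mthfd1 the value was 0.53, again in 9 of 9 pairs and with the same exact permutation p. Mthfd2 went the other way, at -0.17 against Mthfd1, below 0 in 8 of 9 pairs (exact permutation p = 0.00475, the same after adjustment), while its groups overlapped at each single time. With the pairs as a replicate block, an exact sign-change test gave adjusted p = 0.00586, 0.0117 and 0.00586 for Shmt2, Mthfd2 and Mthfd1l. The 9 culture pairs were the same 3 culture batches at 12, 18 and 24 h, and the methods describe cells expanded and then split into flasks. Culture pairs of 1 batch are thus not independent, although both exact tests treat them so. Their p-values therefore do not measure the spread between batches. At 24 h alone the values were 0.93, -0.10 and 0.41, where 3 against 3 libraries cannot give an exact permutation p below 0.1.

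Part of this was present at 0 h. The Shmt2-Shmt1 value already differed by 0.57 ± 0.05 (log2, SE of the means, n = 3 per group) at 0 h without overlap, so the later mean exceeded it by 0.49 ± 0.11. The corresponding changes were 0.32 ± 0.19 for Mthfd1l-Mthfd1 and -0.21 ± 0.23 for Mthfd2-Mthfd1. The pairs share Mthfd1 and are not independent.

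**Figure D3:**
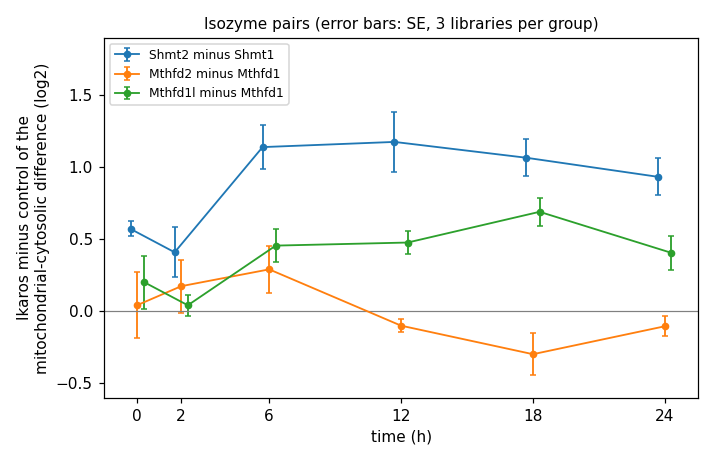
Ikaros minus control difference of the within-library value mitochondrial gene minus cytosolic gene (log2, vertical axis) against time in hours, for 3 isozyme pairs. Points are differences of group means and bars their SE from 3 libraries per group. Shmt2 minus Shmt1 stays above 0 at every time and reaches 1.18 at 12 h, and Mthfd2 minus Mthfd1 lies below 0 at 12, 18 and 24 h.

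The rest of the pathway was read from a list of 51 genes, of which 39 had values. At 24 h 26 were called lower, 6 higher and 7 not called, against 31.9% lower and 31.0% higher over all genes. The counts of lower and higher were 1 and 3 at 0 h, and 6 and 7 at 2 h. They were 13 and 8 after 6 h, 20 and 2 after 12 h, and 22 and 8 after 18 h. Over all genes the shares lower and higher were 3.72% and 4.61% at 0 h, 9.88% and 9.18% at 2 h, and 19.2% and 18.1% at 6 h, followed by 22.8% and 23.0%, then 29.2% and 29.0%. The counts depended on the replicates kept, and leaving out 1 at all times also left fewer libraries to set the spread. Leaving out 1 replicate gave 0 to 3 lower and 1 to 4 higher for 0 h, 1 to 6 lower and 2 to 7 higher for 2 h, and 6 to 11 lower and 2 to 9 higher for 6 h. The higher count became 2 to 5 for 12 h, 4 to 7 for 18 h and 4 to 6 for 24 h. The lower count became 14 to 20 for 12 h, 19 to 24 for 18 h and 20 to 25 for 24 h. For 0 h and for 12 h the higher count was 5 with culture batches as a replicate block.

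The lowest at 24 h was Slc6a9, a glycine transporter, at -4.07 ± 0.22 (log2, SE; 10.8 in control cells and 6.71 in Ikaros cells). Next were Fpgs, which retains folates by adding glutamates (-3.00 ± 0.14), Tyms, the folate-dependent thymidylate synthase (-2.97 ± 0.15), Gcsh, the lipoyl protein of the glycine cleavage system (-2.93 ± 0.17), Slc1a4, a neutral amino acid carrier that takes serine (-2.92 ± 0.13), and Slc19a1, the reduced folate carrier (-2.65 ± 0.17). All 3 listed genes that use folates in nucleotide synthesis were lower, with a median of -2.23 (Tyms, Atic and Gart).

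The genes that were higher by at least 1 on the log2 scale were Amt, the aminomethyltransferase of the glycine cleavage system (3.63 ± 0.31), Slc46a1, a proton-coupled folate transporter (1.99 ± 0.29), and Nfe2l2, which encodes the regulator NRF2 (1.58 ± 0.14). Amt and Gcsh, which belong to the same cleavage complex, thus moved in opposite directions. Amt and Slc46a1 were low in control cells, at 5.45 and 7.42. In the methionine cycle, to which Mtr belongs, 7 of 9 genes were lower and 1 higher with a median of -0.70, and 1, Mtrr, which reactivates Mtr, was not called (-0.26 ± 0.12, adjusted p = 0.0628, limma). Myc and Atf4, which encode regulators known to act on this pathway and were chosen for that, stood at -2.52 ± 0.17 and -0.77 ± 0.24, both called. Nfe2l2, the other of the 3 listed regulators, went the other way (1.58 ± 0.14). In time they differed. Myc was called lower from 2 h (-1.63 ± 0.17), whereas Atf4 was not called before 24 h (-0.27 ± 0.24 at 18 h, adjusted p = 0.329, limma). Nfe2l2 was called higher from 18 h (0.80 ± 0.14).

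**Figure D4:**
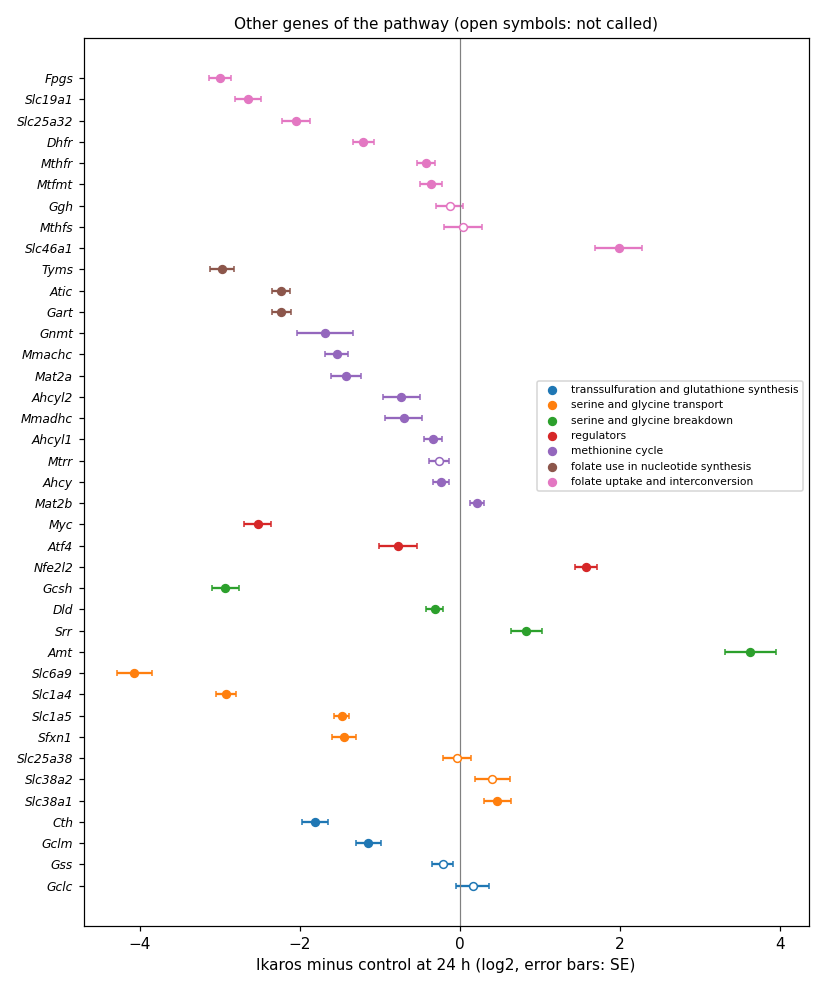
Ikaros minus control log2 difference at 24 h (horizontal axis) for the 39 other pathway genes, grouped by role (colour). Bars are SE and open symbols genes not called. Of the 39, 26 are called lower, down to -4.07 for Slc6a9, and 6 higher, up to 3.63 for Amt.

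Over the 36 libraries the members other than Mtr varied together, with Pearson r between 0.703 and 0.96 and a median of 0.879 over 28 pairs. With Mtr, r lay between 0.0604 and 0.628. These libraries share the time course, so the values describe it and carry no test. The genes most like Phgdh were Rbbp7 (r = 0.980), Asns, the asparagine synthetase (0.978), and Pycr1 (0.978), an enzyme of proline synthesis. For Mthfd1 they were Cad (0.985), which starts pyrimidine synthesis, Atic (0.981) and Eif5a (0.981), and for Shmt1 Wdr75 (0.992), Nat10 (0.992) and Rcc1 (0.990). Mthfd2 was closest to Ppa1, Gars and Cct3 (0.967 to 0.973), and Mthfd1l to Tagln2 (0.956), Hspd1 and Ranbp1. Psat1 was closest to Wdr5 (0.961), Cdv3 and Rpn2, Psph to Metrn (0.948), Pebp1 and Pycr1, and Shmt2 to Ergic1 (0.967), Ide and Rqcd1. Mtr had the loosest neighbours, Ptpn11 (0.924), Atad2 and Akap11.

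Values of other markers also changed over time in Ikaros cells, and part of this was present at 6 h. Itgam went from 4.08 ± 0.59 at 0 h to 9.35 ± 0.24 at 24 h (mean log2 ± SD, n = 3) against 4.87 and 5.11 in control cells, and Lyz2 from 9.37 ± 0.52 to 4.68 ± 0.60 against 6.43 and 7.61. The log2 of the sum of both lay at 8.87 to 9.88 in Ikaros libraries at 0 h and at 9.22 to 9.67 at 24 h, and in control libraries at 6.43 to 7.15 and at 7.28 to 8.74. The sum of the pre-B markers lay at 19.38 to 19.45 at 0 h and at 20.2 to 20.3 at 24 h in Ikaros cells, and at 19.8 to 19.9 and at 19.7 to 19.8 in control cells. Within it the surrogate light chain genes Vpreb1 and Igll1 went from 15.7 and 16.4 to 12.7 and 12.6 in Ikaros cells. At 6 h the Ikaros means were already 13.8 for Vpreb1, 13.0 for Igll1, 7.8 for Itgam and 6.78 for Lyz2. The part of these markers in the results was not tested.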

How the data were processed

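The authors aligned reads to mm10 with TopHat2, counted them per gene with HTSeq (versions not given in the sources used here), normalised with cqn, adjusted for library preparation with ComBat and deposited log expression values. The deposited values were taken as log2 because cqn builds its values on that scale (the base itself is not given in the sources used here), and the lowest is 1. Strand-specific, paired-end libraries were made, in 6 balanced preparation runs. The depth reached per library is unknown, so the counting error of low values cannot be read from this scale. All 36 libraries were fitted here with limma 3.58.1 (R 4.3.3), 1 mean per group, and genes were called at an adjusted p under 0.05 (Benjamini-Hochberg, two-sided). Every share of all genes called comes from this fit, and shares under the alternatives are not given here. The code was tested on simulated data. Isozyme pairs were compared by exact permutation (scipy 1.17.1, numpy 2.4.6).

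The 9 members and all lists were chosen with earlier results of these data known. Named were all members, pathway genes called with a log2 difference of at least 1 at 24 h (at most 6 per direction), and the 3 genes most correlated with each member. Levels of most pre-B markers are not reported here. Others were named with values after being seen: Mtrr, Atf4, Myc, Atic and Gart.

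The labels give each pair of lines a shared culture batch, so the numbers pair the samples. Deviations from group means correlated between -0.062 and 0.507 over 18 pairs (median 0.128), with 12 above 0.1. At most 0.384% of values were identical between any pair of libraries. Nothing in the labels says more on the independence of cultures within a batch, so p-values measure the spread between these samples. The methods describe cells expanded and then split into flasks, so libraries of 1 batch are not independent. Limma's main fit has no batch term and treats them as independent. Its pooled spread therefore rests on fewer independent units than the 36 libraries. Annotation was GENCODE M21 (98.7% of gene identifiers matched), promoters were RefSeq's on GRCm38.p6, and protein sequences were not used here. The alternatives were the culture batch or each pair as a block, a low-value filter, quantile normalisation, limma's trend and robust options, fitting only the groups compared, and leaving out each replicate at all times (the second is batch 2 at 0 h and batch 3 later). In the batch block, 0 h and later times had separate batch terms with batch 1 as the reference.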

Additional observations from a re-analysis of the deposited data

Results flagged for a closer look

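In 8 of the 9 genes the Ikaros-control difference at 24 h differed from that at 0 h by limma's test of the change itself, where 24.2% of all genes were called lower. The change was -2.48 for Phgdh, -2.39 for Shmt1, -2.26 for Mthfd2, -2.11 for Mthfd1, -2.03 for Shmt2, -1.91 for Mthfd1l, -1.51 for Psph and -0.99 for Psat1 (log2). With culture batches as a replicate block Mtr was called as well (-0.39, adjusted p = 0.034, limma). The 0 h cultures were collected on other occasions than the later ones, and the 8 genes were called also when 2 h took the place of 0 h.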

How the results depend on the processing

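Gene by gene, the alternatives were read for the line difference at each time and its change to 24 h from 0 or 2 h. Ikaros cells at 24 h against 0 h were read too. The other contrasts were read only as counts, given below, and some of those fell as well. Of the 49 gene differences called and 32 not called in this set, 0 called ones reversed under any alternative run, 4 lost the call in at least 1 (Shmt1 at 2 h, Mthfd1l at 6 h, Phgdh at 12 h and Mtr at 24 h against 0 h in Ikaros cells), 6 uncalled ones gained it and 6 uncalled ones reversed. The reversals were all near 0: Psat1 at 2 h was -0.00373 (log2) with quantile normalisation, and leaving out 1 replicate gave ranges of -0.000273 to 0.124 for Mthfd2 at 0 h, -0.0584 to 0.0514 for Mthfd1 at 0 h, -0.00721 to 0.0147 for Psat1 at 2 h, -0.0758 to 0.00717 for Mthfd1l at 2 h, -0.110 to 0.0601 for Mthfd1 at 6 h and -0.0395 to 0.128 for Mtr at 6 h. With culture batches as a replicate block, 1 member was lower at 0 h, 2 were higher at 6 h, 1 changed lower at 6 h against 0 h, 2 were lower in Ikaros cells at 6 h, and the pathway list had 5 higher at 0 h and 5 at 12 h. With each pair as a replicate block the counts were 1, 2 and 1 for the first 3 of these and 5 for the pathway list at 12 h. With limma's trend and robust options 1 member was lower at 0 h. With only the groups compared, where fewer samples set the spread, 0 members were lower at 2 h, 0 higher at 6 h and 1 lower in Ikaros cells at 6 h, and the pathway list had 1 lower and 2 higher at 2 h and 6 lower and 1 higher at 6 h. The low-value filter left 1 pathway gene higher at 12 h. At 24 h alone, 20 permutations per pair gave 0.934, -0.103 and 0.407 for the isozyme pairs, with adjusted p of 0.15, 0.3 and 0.15 by the exact permutation test. Leaving out 1 replicate gave 0 to 1 member lower at 2 h, 0 to 1 higher at 6 h, 2 to 5 changed lower at 12 h, 1 lower in Ikaros cells at 6 h and 4 to 7 at 12 h, and the pathway list had 0 to 3 lower and 1 to 4 higher at 0 h, 1 to 6 and 2 to 7 at 2 h, 6 to 11 and 2 to 9 at 6 h, 2 to 5 higher at 12 h and 4 to 7 higher at 18 h. Without batch 4, Shmt2 and Mthfd1l were called lower at 12 h (adjusted p = 0.0284 and 0.0456, limma). The cause of these shifts was not tested, and either block also called Shmt2 at 12 h (adjusted p = 0.0414 and 0.0433, limma) and Mtr at 24 h (0.00553 and 0.0136), and the batch block called the Mtr change from 0 h to 24 h (0.034) and lost Mtr in Ikaros cells at 24 h (0.0596). Beyond these, and Shmt1 at 0 h and Mthfd2 at 6 h counted above, neither block changed a call among the 9 genes at each time, or in the change to 24 h from 0 or 2 h. Contrasts of Ikaros cells with 0 h were read at the level of batch 1 in the batch block. They were not fitted with each pair as a block. In Ikaros cells at 24 h against 0 h the batch block changed no call other than that of Mtr. Members lower at 18 h and 24 h numbered 8 and 8 to 9 with any replicate left out. In those fits the pathway list had 14 to 20 lower at 12 h, 19 to 24 at 18 h and 20 to 25 at 24 h.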

Other observations

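In the 18 control libraries the members did not move as 1 group. Phgdh had r = -0.860 with Mtr, -0.826 with Shmt2 and -0.793 with Mthfd1l, while it had 0.772 with Psph, and Shmt2 had 0.917 with Mtr. Over the 18 Ikaros libraries Phgdh had 0.336, 0.918 and 0.929 with the first 3. The control values go with culture batch 4, which was highest for Phgdh and lowest for Shmt2 and Mtr at 5 of 5 times after 0 h. The libraries share batches and times, so no test is given, and the part of the batch was not tested.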
